A study of Mus musculus with 3 samples.

Results

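The genes described here are 10 genes of MHC class II antigen presentation and peptide loading, chosen by name: the DO chains H2-Oa and H2-Ob, the DM chains H2-DMa, H2-DMb1 and H2-DMb2, the classical class II chains H2-Aa, H2-Ab1 and H2-Eb1, the invariant chain gene Cd74, and the transactivator gene Ciita. All 10 were among the 22548 genes counted. They were measured in migratory dendritic cells of the ear-draining lymph node of mice given MC903, an analogue of calcitriol used to provoke allergic skin inflammation, on days 0, 2 and 4, with sorting on day 5. CITE-seq was used, which counts the mRNA of each cell together with antibody-bound oligonucleotide tags. The sorted groups were BFP+RFP+ cells, BFP-RFP+ cells, BFP+RFP- cells and BFP-RFP- cells, and values of all 4 are given in that order. All came from mice with the alleles SiglechiCreTg/0, ROSA26LoxP-STOP-LoxP-RFP and Tnfsf4KI/+, and all had received MC903. The red reporter RFP stays on in any cell in which Cre, expressed from Siglech, has once acted, and the blue reporter BFP reports Tnfsf4, which encodes OX40L, a costimulatory ligand, from 1 knocked-in copy. The labels give neither the age nor the number of the mice, and the data hold no untreated mice. The sort took B220-, XCR1- and CD326-negative cells with high surface MHC class II and low to intermediate CD11c, so every cell had been selected for high class II protein, and differences in class II mRNA are differences within that gate. The populations were hashtagged and pooled as 5200, 5200, 10400 and 5200 cells and captured once, so each is 1 sample. No test between populations was possible, no p-value is given, and every interval is a 95% interval that covers counting error only. Intervals of levels, ratios and shares are exact, and those of differences between 2 log2 values, DO over DM included, use a normal approximation.

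Classical class II molecules are assembled in the endoplasmic reticulum with the invariant chain, which blocks the peptide groove and steers the complex to endosomes. There the invariant chain is cut down to a fragment in the groove, and DM exchanges that fragment for peptides of the antigen. DO is a class II-like dimer that binds DM and holds it back, so the balance of DO to DM bears on how strictly peptides are edited. DO is known mainly from B cells, thymic epithelium and some dendritic cells. CIITA, which does not bind DNA by itself, switches on the classical class II, invariant chain and DM genes together with factors on the X and Y boxes of the promoters. Dendritic cells that have matured and migrated are known to carry much class II protein on their surface while they make less of it anew.

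Promoter sequences are shown first because H2-Oa and H2-Ob, the chains of 1 dimer, had different ratios between the populations over all kept barcodes. RefSeq windows (build GRCm38.p6) were found for H2-Oa, H2-Ob, H2-DMa, H2-DMb1, H2-DMb2, H2-Aa and H2-Eb1. Each line gives the 130 bases before the annotated start, 5′ to 3′ on the gene's strand. Capitals mark ATTGG, the core of a Y box, and TGATG, letters of the X box region, on either strand, with overlapping matches run together. The letters and the spacing given below were chosen after these sequences had been seen.
H2-Oa: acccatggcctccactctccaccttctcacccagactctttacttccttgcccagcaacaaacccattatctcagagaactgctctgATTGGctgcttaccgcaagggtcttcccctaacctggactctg
H2-Ob: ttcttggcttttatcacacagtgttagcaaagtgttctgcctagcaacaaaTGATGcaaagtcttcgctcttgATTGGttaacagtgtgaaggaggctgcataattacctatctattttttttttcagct
H2-DMb1: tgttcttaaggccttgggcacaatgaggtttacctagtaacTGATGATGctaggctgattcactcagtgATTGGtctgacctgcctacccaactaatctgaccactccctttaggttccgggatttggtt
H2-DMb2: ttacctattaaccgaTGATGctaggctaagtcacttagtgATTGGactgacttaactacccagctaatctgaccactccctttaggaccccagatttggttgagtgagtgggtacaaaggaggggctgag
H2-Aa: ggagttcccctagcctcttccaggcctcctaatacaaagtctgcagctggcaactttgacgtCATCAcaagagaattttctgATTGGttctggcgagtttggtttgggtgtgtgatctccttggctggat
H2-Eb1: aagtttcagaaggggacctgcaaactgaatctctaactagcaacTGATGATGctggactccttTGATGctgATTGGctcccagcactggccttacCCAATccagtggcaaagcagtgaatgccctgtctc

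These windows lie on chromosome 17, at chr17:34092249-34092378 (plus strand) for H2-Oa, chr17:34238775-34238904 (plus) for H2-Ob, chr17:34153061-34153190 (plus) for H2-DMb1, chr17:34145119-34145248 (plus) for H2-DMb2, chr17:34287824-34287953 (minus) for H2-Aa and chr17:34305737-34305866 (plus) for H2-Eb1. In H2-Ob, H2-DMb1, H2-DMb2 and H2-Eb1, TGATG was followed after 17, 20, 20 and 19 bases by ATTGG on the gene's strand. Of the letters searched, H2-Oa held ATTGG alone, and H2-Aa held ATTGG on the gene's strand and TGATG on the other. Neither H2-DMa window, not printed, held the spaced pair. Other letters of the X box region were not searched, so absence of TGATG does not show absence of an X box. Over all 32817 RefSeq windows of 250 bases before a start, searched on both strands, ATTGG was in 33.8%, TGATG in 34.5%, and TGATG followed by ATTGG after 15 to 30 bases in 0.814%, or 267 windows. A match of letters is a description and not a binding site, and its bearing on the ratios was not tested.

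The matrix held 6079 barcodes. A barcode was kept when 1 hashtag made up 80% or more of its hashtag UMIs (unique molecular identifiers, counted molecules), with 1000 or more mRNA UMIs and at most 10% mitochondrial UMIs. This left 5023 barcodes, of which 842 were BFP+RFP+, 982 were BFP-RFP+, 2185 were BFP+RFP- and 1014 were BFP-RFP-, with 14140272, 15746616, 35590897 and 14877282 mRNA UMIs and median depths between 13884 and 15182 UMIs. More hashtag-assigned barcodes were lost in the BFP- populations, 8.22% of BFP-RFP+ and 13.5% of BFP-RFP-, than in the BFP+ ones, 4.10% of BFP+RFP+ and 3.32% of BFP+RFP-. A further 699 barcodes (11.5%) had no hashtag at 80%, and if all were doublets, 294 doublets within a population (5.47% of the assigned) would remain. They were not removed. Tnfsf4 stood at 305, 53.0, 102 and 19.8 UMIs per 1000000 mRNA UMIs (CPM) in the 4 populations, higher in BFP+ than in BFP- cells of the same RFP state, and higher in BFP+RFP+ than in BFP+RFP- cells. The RFP transcript tdRFP was at 23.5, 21.0, 0.169 and 0.672 CPM in the same order. Markers of migratory dendritic cells were high throughout, with Ccr7 at 1312 to 1516 CPM and Fscn1 at 2067 to 2291 CPM. Xcr1 (at most 0.202 CPM) and Cd207 (at most 0.202 CPM), markers of cDC1 and Langerhans cells, were near 0. Other genes of the cDC1 list were Clec9a (at most 0.941 CPM), Itgae (at most 2.73), Cadm1 (9.81 to 38.5) and Wdfy4 (20.3 to 83.3). Those of the Langerhans cell list were Epcam (1.34 to 3.62 CPM) and Mfge8 (22.3 to 31.1), so not all genes of these lists were near 0. Barcodes with 3 or more UMIs from a list of another cell type were present. Each was counted once, under the first list it met. The order was the B cell list (262), the T or NK cell list (302), the C1q genes (61) and the cDC1 list (310, mostly through Wdfy4 and Cadm1). Each later count thus leaves out barcodes already counted, and 4088 barcodes had none of these.

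All 3 classical chain genes and Cd74 were highest in BFP+RFP+ cells and lowest in BFP-RFP- cells. H2-Aa, the alpha chain of I-A, was at 6565 CPM in BFP+RFP+, 4492 in BFP-RFP+, 5588 in BFP+RFP- and 3896 in BFP-RFP- cells. H2-Ab1, its beta chain, was at 3017, 2455, 2471 and 1910 CPM in the same order. H2-Eb1, the beta chain of I-E, was at 5258, 3773, 4373 and 3173 CPM. Cd74 was at 13770, 11159, 11917 and 9148 CPM. The intervals of all 4 populations were apart for H2-Aa, H2-Eb1 and Cd74, and overlapped for H2-Ab1 between BFP-RFP+ (2430 to 2479) and BFP+RFP- cells (2455 to 2487).

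**Figure D1:**
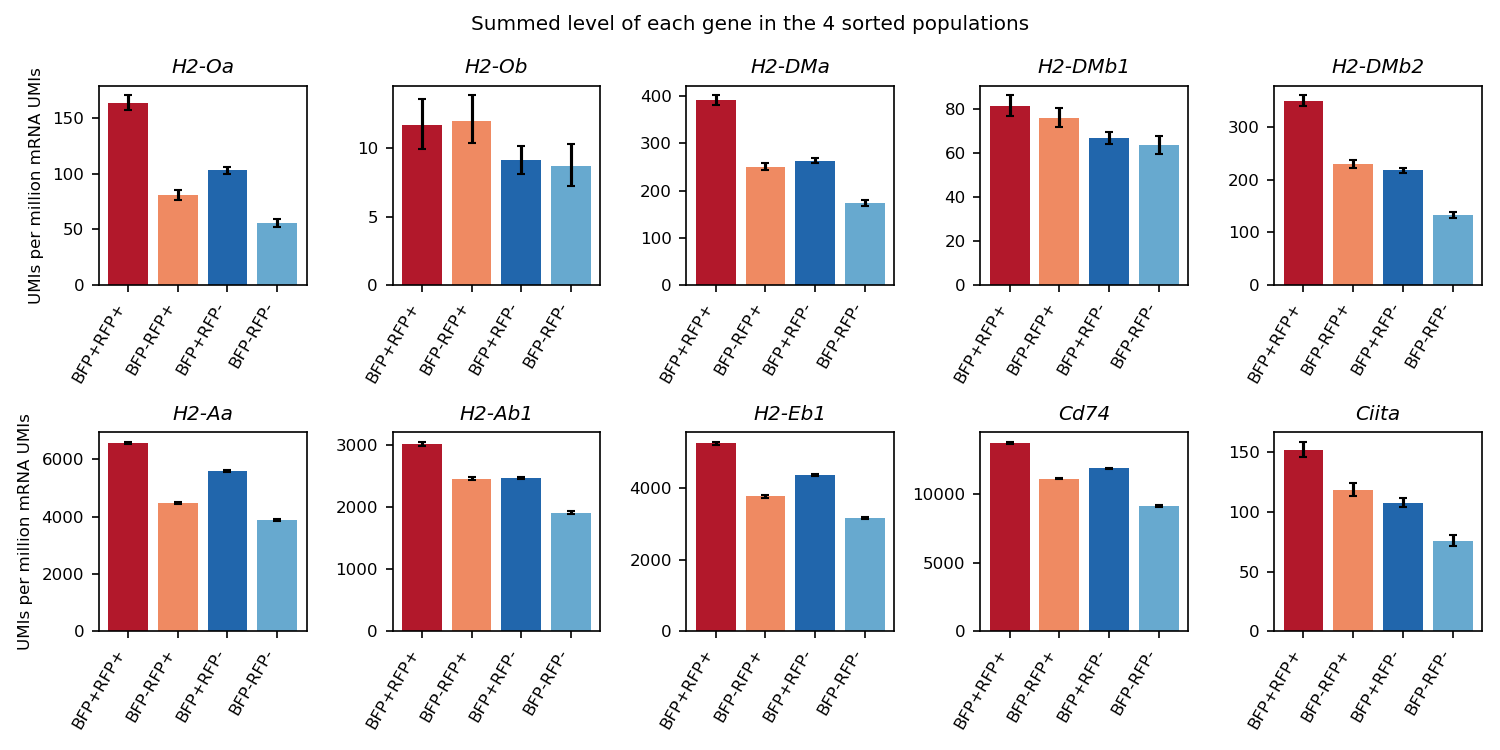
Level of each gene (y axes, UMIs per 1000000 mRNA UMIs, from 0) in the 4 sorted populations, with bars for summed UMIs and black lines for exact 95% Poisson intervals. BFP+RFP+ cells had the highest bar for every gene except H2-Ob, at 11.7 CPM there against 12.0 in BFP-RFP+ cells, and BFP-RFP- cells had the lowest bar for all 10.

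The DM genes H2-DMa and H2-DMb2 had the same order at the ends. H2-DMa, the alpha chain, was at 391 CPM in BFP+RFP+, 251 in BFP-RFP+, 263 in BFP+RFP- and 173 in BFP-RFP- cells. H2-DMb2, a beta chain gene, was at 350, 230, 218 and 132 CPM. H2-DMb1, the other beta chain gene, differed less, at 81.1, 75.8, 66.7 and 63.5 CPM, and its intervals overlapped between the BFP states. H2-DMb1 and H2-DMb2 are near-identical copies, so how the authors' counting split their reads is uncertain, and each value alone carries that limit.

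Over all kept barcodes the DO chains had different ratios between the populations. H2-Oa, the alpha chain, was at 164 CPM in BFP+RFP+ (157 to 170), 80.7 in BFP-RFP+ (76.3 to 85.3), 103 in BFP+RFP- (99.7 to 106) and 55.7 in BFP-RFP- cells (52.0 to 59.6). H2-Ob, the beta chain, was at 11.7 (9.96 to 13.6), 12.0 (10.4 to 13.8), 9.10 (8.14 to 10.2) and 8.67 CPM (7.24 to 10.3), all on 129 to 324 UMIs. The intervals of H2-Oa were apart in all 4 populations, and those of H2-Ob overlapped between the BFP states, while for RFP they met only within BFP+. Ciita was at 152, 118, 108 and 75.8 CPM.

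The first comparison asked how the OX40L reporter related to these genes. Between BFP+RFP+ and BFP-RFP+ cells, 4 of 10 genes were higher by a log2 ratio of 0.5 or more (1.41-fold), where 2.53% of the 9463 genes with 100 or more UMIs were. These were H2-Oa at 1.02 (0.92 to 1.12), H2-DMa at 0.64 (0.58 to 0.70), H2-DMb2 at 0.60 (0.54 to 0.66) and H2-Aa at 0.55 (0.53 to 0.56). None was lower by that much, against 9.31% of all genes. Between BFP+RFP- and BFP-RFP- cells, 5 of 10 were higher, where 2.58% of 10237 genes were, and none was lower, against 5.39%. They were H2-Oa at 0.89 (0.78 to 1.00), H2-DMb2 at 0.72 (0.65 to 0.79), H2-DMa at 0.60 (0.54 to 0.67), H2-Aa at 0.52 (0.51 to 0.53) and Ciita at 0.51 (0.41 to 0.61). The median of the 10 log2 ratios was 0.42 within RFP+ and 0.49 within RFP-, where that of all genes was -0.09 and -0.07. H2-Ob, at -0.04 (-0.35 to 0.27) and 0.07 (-0.23 to 0.38), and H2-DMb1, at 0.10 (-0.02 to 0.22) and 0.07 (-0.04 to 0.18), were the members whose intervals included 0.

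Markers of some other cell types differed with BFP. The 8 macrophage or monocyte genes summed to 151 CPM in BFP+RFP+ against 436 in BFP-RFP+ cells, and to 111 CPM in BFP+RFP- against 542 in BFP-RFP- cells, with Lyz2 at 115, 323, 74.3 and 348 CPM in the order of the populations above. The 5 cDC1 genes summed to 46.3, 125, 35.6 and 63.4 CPM and the 7 B cell genes to 93.6, 59.3, 92.4 and 59.8 CPM. No gene of these lists was at 0 over the pool. Without the barcodes with such markers the BFP ratios of the members were larger. Then 8 of 10 members were higher by 0.5 or more within RFP+ and 8 within RFP-. The share of all genes past 0.5 was not taken for this set, so these counts have no background beside them. H2-Oa was then at 1.09 and 1.00, H2-DMa at 0.96 and 0.94, H2-Ab1 at 0.72 and 0.76 and Ciita at 0.83 and 0.79. H2-Ob was at 0.92 and 0.31, on only 93, 49, 118 and 39 UMIs in the 4 populations, and H2-DMb1 at 0.44 and 0.43.

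The populations also differed in surface tags, with a median of 25 CD11b tag UMIs in BFP+RFP+ and 39 in BFP-RFP+ cells, and of 46 in BFP+RFP- and 55.5 in BFP-RFP- cells. The CD8a medians were 121, 63, 42 and 40. Both populations of a pair were then given the same mix of 16 CD11b and CD8a tag bins, an alternative added after seeing the data. Only bins with 20 or more barcodes in both populations were used. These were 11 bins with 83.8% of the barcodes within RFP+, and all 16 with 100% within RFP-. Within RFP+, 1 member stayed past 0.5 (H2-Oa at 0.82). Within RFP-, 3 members did, with H2-Oa at 0.86, H2-DMb2 at 0.66 and H2-DMa at 0.52. The share of all genes past 0.5 was not taken under this mix.

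**Figure D2:**
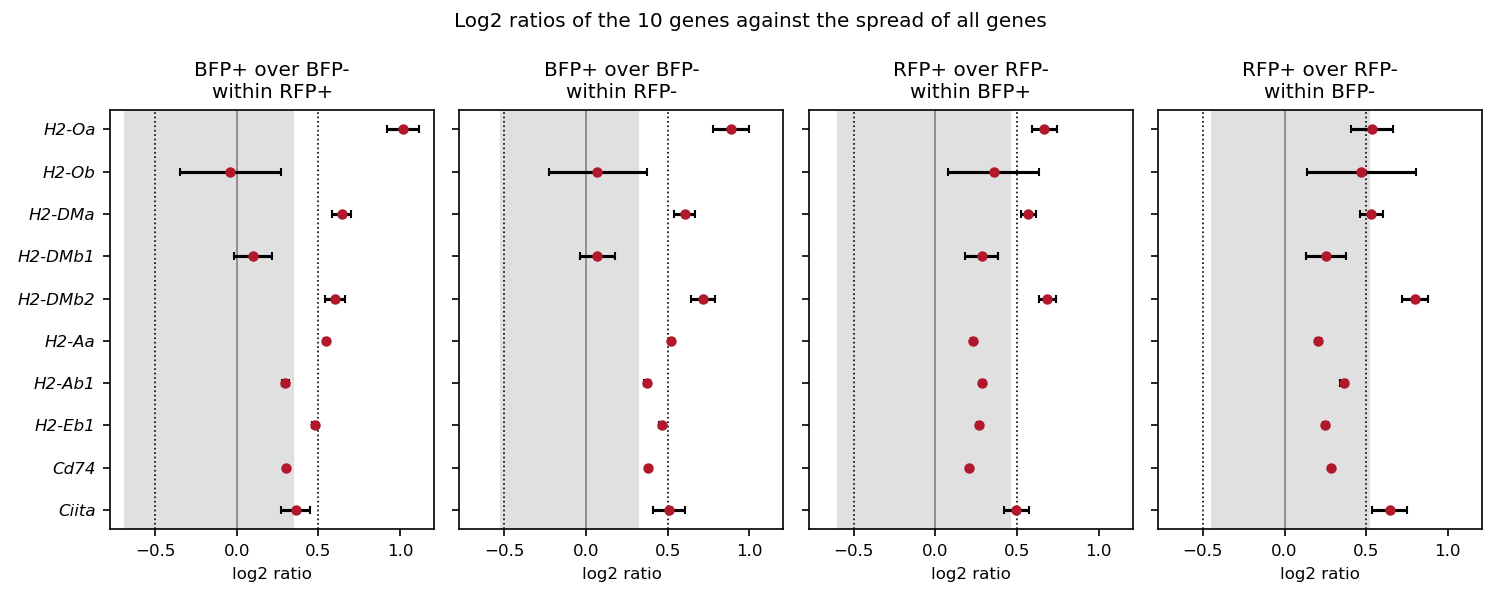
Log2 ratios of the 10 genes (rows, H2-Oa at the top) in the 4 comparisons of populations (panels), with exact 95% intervals for counting error. Grey bands run from the 5th to the 95th percentile of all genes with 100 or more UMIs and dotted lines mark -0.5 and 0.5. H2-Oa lay to the right of the band in all 4 panels, and H2-Ob inside it in all 4.

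The second comparison asked how a history of Siglech-driven Cre related to them. Between BFP+RFP+ and BFP+RFP- cells, 3 of 10 genes were higher by 0.5 or more, where 4.34% of 10139 genes were: H2-DMb2 at 0.69 (0.63 to 0.74), H2-Oa at 0.67 (0.59 to 0.74) and H2-DMa at 0.57 (0.52 to 0.62). Ciita stood just inside the threshold at 0.50 (0.42 to 0.57). Between BFP-RFP+ and BFP-RFP- cells, 4 of 10 were higher, where 5.21% of 9612 genes were: H2-DMb2 at 0.80 (0.72 to 0.88), Ciita at 0.64 (0.54 to 0.75), and H2-Oa and H2-DMa at 0.53 each. No member was lower by 0.5 in either, against 6.79% and 3.91% of all genes. The classical chains and Cd74 differed less, between 0.21 and 0.29 within BFP+ and between 0.21 and 0.36 within BFP-. The medians of the 10 ratios were 0.32 and 0.41, where those of all genes were -0.03 and -0.01.

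The RFP ratios depended on the tag mix. With the same mix of tag bins, no member was past 0.5 within BFP+, where H2-DMb2 was at 0.39, H2-Oa at 0.25 and H2-DMa at 0.16, and 1 member was past it within BFP- (H2-DMb2 at 0.62). The bins with 20 or more barcodes in both populations held 73.3% of the barcodes within BFP+ and 100% within BFP-. Without the deepest 5% of barcodes, 5 members were past 0.5 within BFP+, H2-Ob (0.57) and Ciita (0.52) being added to the 3 above. Without the barcodes with other-type markers 5 were as well, with H2-Ob at 1.10 on 93 and 118 UMIs. No share of all genes was taken under these alternatives. Between the RFP states the BFP ratio differed by little: for H2-Oa it was 0.13 larger within RFP+ than within RFP- (-0.01 to 0.28), for H2-DMa 0.04 larger (-0.05 to 0.13), and for Ciita 0.15 smaller (-0.28 to -0.02 for the signed difference). Both comparisons use the same 4 populations, so these are not separate observations.

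Counted per barcode, the summed H2-Aa, H2-Ab1, H2-Eb1 and Cd74 UMIs were spread widely in every population. Per 10000 mRNA UMIs the medians were 271 in BFP+RFP+, 172 in BFP-RFP+, 210 in BFP+RFP- and 94.5 in BFP-RFP- barcodes. The 90th percentiles were close, at 479, 434, 465 and 418, whereas the 10th percentiles were 49.6, 14.5, 18.2 and 12.9. Barcodes with under 100 per 10000 made up 13.8% of BFP+RFP+ (11.5 to 16.3), 37.0% of BFP-RFP+ (33.9 to 40.1), 30.02% of BFP+RFP- (28.1 to 32.0) and 51.1% of BFP-RFP- barcodes (48.0 to 54.2). The threshold cuts a continuous range, with 38, 86, 136 and 81 barcodes between 80 and 120. Barcodes below it were shallower, with medians of 10495.5 to 12748 UMIs against 15320 to 15902 above it. Without the barcodes with other-type markers the shares below were 12.1%, 40.0%, 29.6% and 54.2%.

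**Figure D3:**
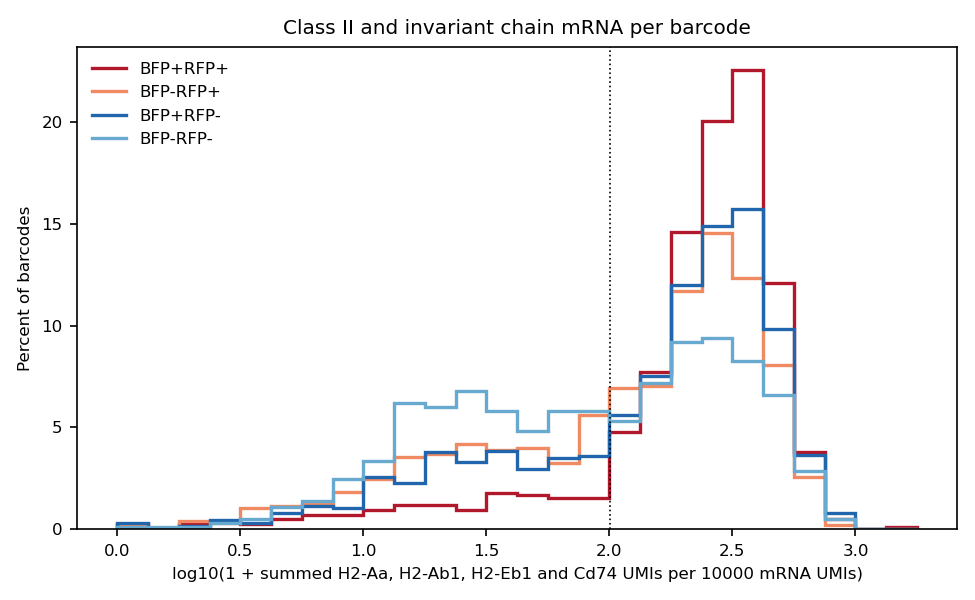
Distribution over barcodes of the summed classical chain and Cd74 UMIs per 10000 mRNA UMIs (x axis, log10 of 1 plus the value), as percent of the barcodes of each population (y axis), with a dotted line at 100. The share left of the line was 13.8% for BFP+RFP+, 37.0% for BFP-RFP+, 30.02% for BFP+RFP- and 51.1% for BFP-RFP- barcodes.

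In the barcodes with 100 or more, the classical chains and Cd74 differed less between populations than over all barcodes, and the threshold is set on them. Cd74 was nearly level, at 14961.5 CPM in BFP+RFP+, 14859 in BFP-RFP+, 14885 in BFP+RFP- and 14814 in BFP-RFP- barcodes. The BFP ratios of H2-Aa were 0.23 within RFP+ and 0.10 within RFP-, those of H2-Eb1 0.15 and 0.03, and those of H2-Ab1 -0.05 and -0.09. Ciita was then at 163 CPM in BFP+RFP+ and 160 in BFP-RFP+ barcodes (log2 ratio 0.03, -0.07 to 0.12), and at 136 in BFP+RFP- and 129 in BFP-RFP- barcodes (0.08, -0.02 to 0.18). H2-Oa kept a difference, at 179 CPM in BFP+RFP+ and 109 in BFP-RFP+ barcodes (0.71, 0.60 to 0.81), and at 129 in BFP+RFP- and 89.6 in BFP-RFP- barcodes (0.52, 0.41 to 0.64). H2-DMa (0.32 and 0.21) and H2-DMb2 (0.26 in both) kept less for BFP, and H2-DMb1 was on the lower side, at -0.24 within RFP+ and -0.36 within RFP-. For RFP, H2-DMb2 was at 0.46 within both BFP states, H2-Oa at 0.47 within BFP+ and 0.29 within BFP-, and Ciita at 0.26 and 0.31.

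The balance of DO to DM was taken as DO UMIs (H2-Oa plus H2-Ob) in percent of DO plus DM UMIs (H2-DMa, H2-DMb1 and H2-DMb2 added). It is a share of transcripts counted at their 3′ ends, not of proteins, and is compared only between groups. It was 17.6% in BFP+RFP+ (16.9 to 18.2), 14.3% in BFP-RFP+ (13.6 to 14.97), 17.0% in BFP+RFP- (16.5 to 17.5) and 14.9% in BFP-RFP- cells (14.0 to 15.7). Over all kept barcodes the DO share was therefore higher in both BFP+ populations. On the log2 scale, DO over DM was higher in BFP+ than in BFP- cells by 0.36 (0.25 to 0.46) within RFP+ and by 0.23 (0.12 to 0.34) within RFP-. For RFP the difference was 0.06 (-0.02 to 0.14) within BFP+ and -0.07 (-0.19 to 0.06) within BFP-, intervals that include 0.

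Without barcodes with other-type markers the DO shares were 18.1% (17.3 to 18.8), 16.04% (15.1 to 17.0), 17.3% (16.7 to 17.8) and 16.2% (15.1 to 17.3). These intervals were apart between the BFP states within RFP+ and overlapped within RFP-. The BFP differences shrank to 0.21 and 0.11. The C1q barcodes alone had a DO share of 4.57% (3.39 to 6.02), and 24 of the 61 were BFP-RFP-. With each barcode weighted equally the BFP differences were 0.21 within RFP+ and 0.38 within RFP-, so their order between the RFP states was not stable. Among barcodes with 10 or more DO plus DM UMIs, which numbered 516, 347, 904 and 221 in the 4 populations, the median DO share per barcode was 16.4%, 11.8%, 15% and 13.6%. The 25th and 75th percentiles were 8.33% and 25% in BFP+RFP+ barcodes, and 5.59% and 22.9% in BFP-RFP+ barcodes. No DO UMI was seen in 7.36% of these BFP+RFP+, 15.9% of BFP-RFP+, 13.5% of BFP+RFP- and 17.2% of BFP-RFP- barcodes.

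The H2-Ob transcripts lay largely in barcodes with markers of other cell types. The 262 B cell marker barcodes (5.22% of those kept) held 32.5% of all H2-Ob UMIs, at 52.5 CPM, and the 310 cDC1 marker barcodes held 24.04%, at 25.7 CPM. The 4088 barcodes with no such markers held 37.1%, at 4.84 CPM. The same 4088 held 77.8% of the H2-Oa UMIs, at 102 CPM, with 149 CPM of H2-Oa in the B cell marker barcodes. Ebf1, a B lineage transcription factor of the B cell list itself, correlated with H2-Ob across barcodes at a Pearson r of 0.37 to 0.65 in the 4 populations, a description of sparse counts. H2-Oa and H2-Ob correlated at 0.11 on average.

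The other 6 genes also had higher levels in barcodes with more classical chain and Cd74 transcripts. Barcodes were ranked within their population by the summed classical chain and Cd74 share and cut into 4 groups of equal size, so the order of those 4 genes is given by the ranking. From the lowest to the highest group Ciita was at 22.9, 81.0, 148 and 168 CPM, H2-Oa at 19.9, 65.7, 117 and 175 CPM, H2-DMa at 41.5, 144, 294 and 517 CPM, and H2-DMb2 at 27.1, 135, 276 and 411 CPM. H2-DMb1 was at 14.5, 45.3, 78.9 and 126 CPM, and H2-Ob at 3.15, 5.48, 13.0 and 16.3 CPM. H2-Oa was thus less far apart between the highest and the lowest group than H2-DMa or H2-DMb2, and the DO share was 21.7%, 18.0%, 16.7% and 15.4%. Among the 26 further genes described below, H2-Eb2, a class II beta chain gene related to H2-Eb1, had the same order, at 24.9, 60.3, 85.5 and 111 CPM. Ifi30, a thiol reductase that unfolds antigens, was at 874, 1062, 1159 and 1509 CPM. Ctss, the protease that trims the invariant chain, was at 487, 484, 497 and 588 CPM, and Cd83, which protects class II from degradation, at 777, 771, 722 and 702 CPM, smaller differences than those of these 6 genes. Of the migratory dendritic cell markers, Ccr7 was at 1570, 1513, 1334 and 1327 CPM and Fscn1 at 1855, 2326, 2288 and 2103 CPM. The lowest group held more barcodes with T or NK cell markers, 15.98% against 2.55% to 3.90% in the others, those that also had B cell markers included. It was also shallower, with a median of 11695.5 against 14505.5 to 16104 UMIs. The part of these in the pattern was not tested.

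Across barcodes the classical chains and Cd74 formed the tightest group, with a Pearson r of log-normalised levels between 0.84 and 0.92 for all 6 pairs, as means over the 4 populations. H2-DMa and H2-DMb2 correlated with these 4 at 0.63 to 0.74, H2-Oa at 0.44 to 0.50, Ciita at 0.39 to 0.50 and H2-Ob at 0.10 to 0.17. Lower abundance lowers such an r, and barcodes share depth and library. Of 6376 genes with 1000 or more UMIs, those most like the summed classical chains and Cd74 were Ctsh, an aminopeptidase of lysosomes (0.54), S100a4 (0.44), S100a6 (0.42), Fabp5, a fatty acid binding protein (0.42), and Actg1, a cytoplasmic actin (0.41). The lowest r with that sum were those of Cd3d (-0.43), Cd3g (-0.42), Skap1 (-0.42), Ms4a4b (-0.42) and Trbc2 (-0.41). Cd3d and Cd3g belong to the T or NK cell list. Barcodes with T or NK cell markers were not left out here, and their part in these r was not tested. Of the same 6376 genes, those most like H2-Oa were Ctsh (0.29), Ly86 (0.29), Fau (0.24), Prnp, the prion protein gene (0.24), and Atpif1, an inhibitor of the mitochondrial ATP synthase (0.24). An r this low in sparse counts is a description only.

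The antibody tags gave a view that the sort had not set. For each tag the barcodes were ranked by tag UMIs within their population and cut into 4 groups of equal size, and the highest group was set against the lowest. Depth moved with every tag: the median mRNA UMIs of the highest and lowest groups were 17643.5 and 11553.5 for CD11b, 17957.5 and 11586.5 for CD8a, 18805.5 and 10875.5 for CD172a, and 17926.5 and 12244.5 for CD301b. The median gene stood between -0.13 and -0.09 in the 4 tag comparisons, and TMM scaling adds 0.11 to the log2 ratios for CD11b and CD8a, 0.16 for CD172a and 0.12 for CD301b.

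CD11b, an integrin of myeloid cells, had the largest difference of the 4 tags in H2-Oa and in the DO share, though not in H2-Ob, which differed more with CD172a. H2-Oa was at 66.8 CPM in the highest against 134 CPM in the lowest group, a log2 ratio of -1.01 (-1.10 to -0.92). H2-Ob was at 7.01 against 15.3 CPM (-1.12, -1.41 to -0.83). These were the 2 members of 10 lower by 0.5 or more, where 12.8% of 10056 genes were, and none was higher, against 8.78%. A count this small is not read as a difference from those shares. H2-DMa (-0.30) and H2-DMb2 (-0.14) differed less, and H2-DMb1 was at 0.34. Without barcodes with other-type markers H2-Ob was at -0.07 and no longer past 0.5, H2-Oa was at -1.20, H2-DMa (-0.57) and Ciita (-0.67) were past it, and H2-DMb1 turned to -0.18. Over all kept barcodes H2-Oa was below 0 in all 4 populations, at -0.47 in BFP+RFP+, -0.89 in BFP-RFP+, -1.49 in BFP+RFP- and -0.97 in BFP-RFP- cells.

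The DO share by CD11b group, lowest to highest, was 20.8%, 17.9%, 15.5% and 12.5%. On the log2 scale DO over DM differed by -0.87 (-0.97 to -0.78) between the highest and the lowest group, and by -0.41, -0.80, -1.13 and -1.15 in the 4 populations, all with intervals below 0. B cell marker barcodes made up 3.99% of the highest and 8.51% of the lowest group. Without barcodes with other-type markers the difference was -0.77, and it was -0.68 when tags were ranked by their centred log ratio among the 4 tags.

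**Figure D4:**
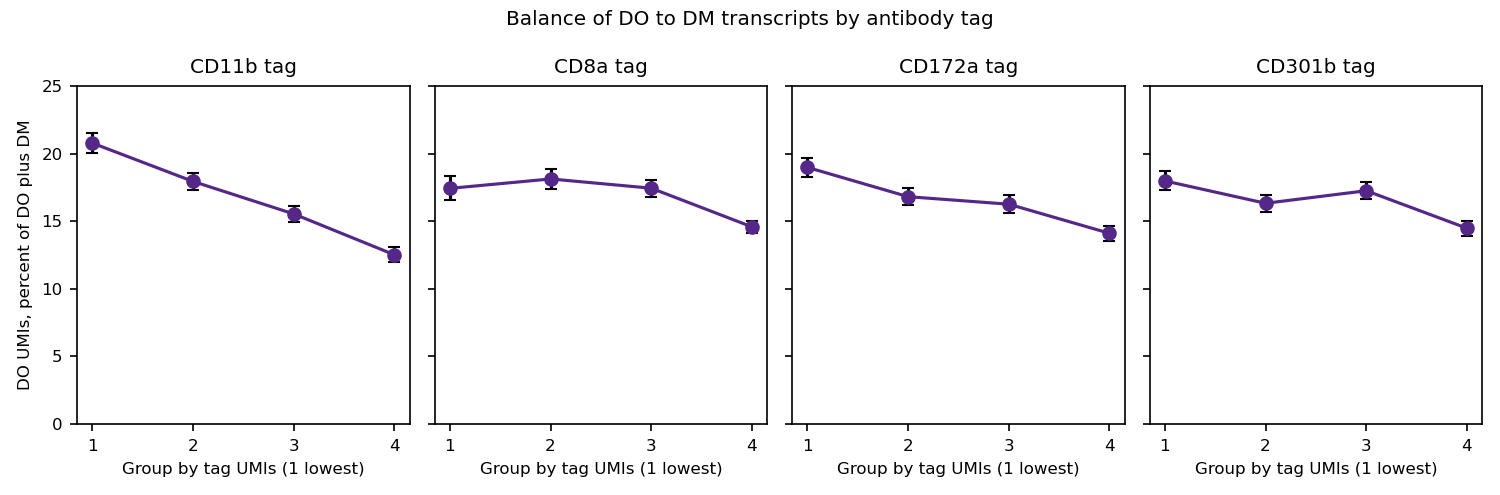
DO UMIs in percent of DO plus DM UMIs (y axis, from 0) in 4 equal groups by each antibody tag (x axis, 1 lowest to 4 highest, ranked within populations), with exact 95% binomial intervals. For CD11b the share was 20.8%, 17.9%, 15.5% and 12.5% from group 1 to group 4, the widest span of the 4 tags.

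CD8a, a surface protein of some dendritic cell subsets, went with higher H2-DMa and H2-DMb2, and less so with higher H2-Oa and Ciita. H2-DMa was at 374 CPM in the highest against 171 CPM in the lowest group (log2 ratio 1.13, 1.07 to 1.20), and H2-DMb2 at 297 against 155 CPM (0.93, 0.87 to 1.00). H2-Oa (114 against 72.7 CPM, 0.65, 0.55 to 0.75) and Ciita (136 against 88.1 CPM, 0.63, 0.54 to 0.72) made up the 4 of 10 members higher by 0.5 or more, where 4.45% of 10006 genes were. None was lower, against 10.7%. All 4 were above 0 in each population, although the interval of Ciita in BFP-RFP- cells included 0 (0.17, -0.06 to 0.41): H2-DMa ran from 0.65 in BFP-RFP- to 1.34 in BFP+RFP- cells, and H2-Oa from 0.50 in BFP-RFP+ to 0.73 in BFP+RFP- cells. Ciita was at 0.46 without barcodes with other-type markers and at 0.48 without the deepest 5%, and so not past 0.5. H2-Ob was at 1.70 without barcodes with other-type markers, against 0.08 over all kept barcodes. H2-DMb1 was at -0.06 (-0.16 to 0.05) and at 0.05 under TMM scaling, so it had no clear direction, while its copy H2-DMb2 was higher. The DO share was 14.6% in the highest against 17.4% in the lowest group (log2 difference -0.31), but with the centred log ratio this turned to 0.42, so no direction of the balance is given for CD8a.

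CD172a, a receptor of type 2 dendritic cells and macrophages, went with lower H2-Oa, H2-Ob and H2-DMa. H2-Ob was at 6.32 CPM in the highest against 19.4 CPM in the lowest group (-1.61, -1.90 to -1.34), H2-Oa at 73.9 against 133 CPM (-0.84, -0.93 to -0.75) and H2-DMa at 224 against 318 CPM (-0.50, -0.56 to -0.45). These 3 of 10 were lower by 0.5 or more, where 16.5% of 10099 genes were, and none was higher, against 7.14%. Such a count is not read as a difference from those shares. All 3 were below 0 in each population, H2-DMa only just so in BFP-RFP- cells (-0.07, -0.23 to 0.10), and under TMM scaling H2-DMa misses the threshold at -0.34. B cell marker barcodes made up 3.51% of the highest against 10.5% of the lowest group. Without barcodes with other-type markers 7 members were lower by 0.5 or more, a count for which no share of all genes was taken. For CD301b, a lectin of dermal type 2 dendritic cells, H2-Ob was the only member past 0.5 (9.28 against 14.7 CPM, -0.66), where 10.1% of 10026 genes were lower and 3.38% higher. That count is likewise not read as a difference from those shares. The direction of H2-Ob turned with other rankings of the tag. The DO to DM differences of -0.51 for CD172a and -0.37 for CD301b also turned with the centred log ratio, to 0.24 and 0.47.

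**Figure D5:**
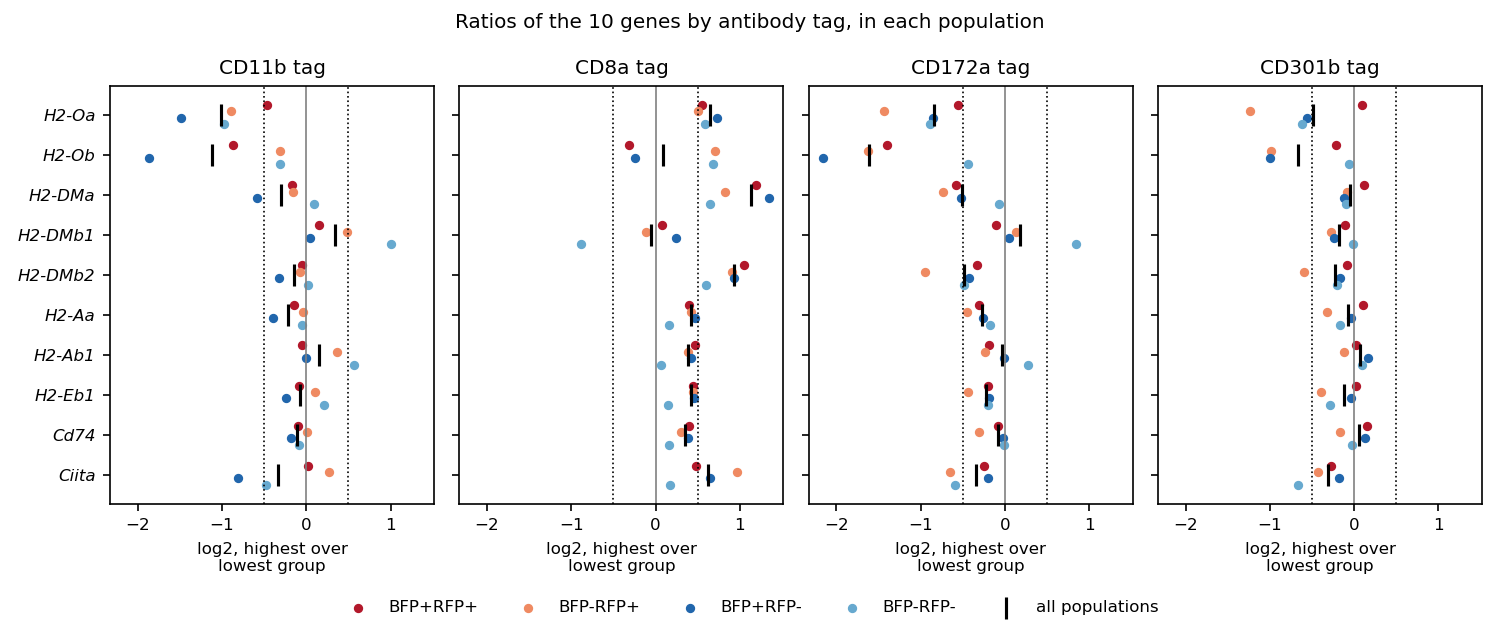
Log2 ratios of the highest over the lowest tag group (x axes) for the 10 genes (rows) and 4 antibody tags (panels), with points for the populations and black bars for all populations together. Dotted lines mark -0.5 and 0.5. H2-Oa lay left of 0 in all populations for CD11b and CD172a and right of 0 for CD8a, and H2-DMa reached 1.34 for CD8a in BFP+RFP- cells.

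Of 28 further gene symbols of class II processing and control, 26 were counted, among them H2-Ea, a pseudogene in some strains, at 0 or near 0 throughout. The symbols not found, March1 and H2-Ea-ps, are other names of Marchf1 and H2-Ea. For the reporters few of them were past 0.5. Of the 24 or 25 with 100 or more UMIs, 1 was higher and 1 lower by 0.5 or more for BFP within RFP+, 2 and 2 for BFP within RFP-, 0 and 2 for RFP within BFP+, and 1 and 1 for RFP within BFP-. In the same order, 2.53%, 2.58%, 4.34% and 5.21% of all genes were higher and 9.31%, 5.39%, 6.79% and 3.91% lower. Counts this small are not read as a difference from those shares. The median log2 ratios of the further genes were -0.18, -0.12, -0.11 and -0.05. Ctsl, a protease of the invariant chain best known from thymic epithelium and macrophages, was at 6.08 CPM in BFP+RFP+ against 10.6 in BFP-RFP+ cells (-0.80) and at 6.55 in BFP+RFP- against 9.48 in BFP-RFP- cells (-0.54). The B lineage factor Ebf1 was at 42.7 against 27.1 CPM (0.66) and 35.0 against 23.0 CPM (0.60) in the same pairs. Pax5, another B lineage factor, was at 4.24 against 2.16 CPM (0.97) and 6.83 against 3.16 CPM (1.10), and for RFP at 4.24 against 6.83 CPM (-0.68) and 2.16 against 3.16 CPM (-0.54), on 94, 290, 303 and 81 UMIs.

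The tags had more of these genes past 0.5 than the reporters, and also larger shares of all genes lower by that much. Of all genes, 8.78% were higher by 0.5 or more and 12.8% lower for CD11b, 4.45% and 10.7% for CD8a, 7.14% and 16.5% for CD172a, and 3.38% and 10.1% for CD301b. Of the 25 further genes, 1 was higher by 0.5 or more and 6 lower for CD8a, 6 and 3 for CD172a, and 2 and 3 for CD301b. Some of the tag counts lie near the shares of all genes, and none is read as a difference from them. For CD11b, 8 were higher by 0.5 or more and 2 lower. Among them, the thiol reductase gene Ifi30 (0.67), the proteases Ctss (0.501), Ctsb (0.55) and Ctsl (0.87), and the transcription factor genes Irf8 (1.29), Spi1 (0.71) and Prdm1 (0.88) were higher, and Ebf1 (-3.24) and Pax5 (-3.84) lower. Prdm1 encodes BLIMP1, a known repressor of Ciita. For CD8a, Irf4 (0.61) was higher and Irf8 (-1.10), Prdm1 (-0.65), Ctsl (-0.59), Marchf1, a ligase that marks class II for degradation (-2.39), Ebf1 (-2.24) and Pax5 (-4.03) were lower. For CD172a, Prdm1 (1.00), Lgmn (0.84), Irf8 (0.83), Ctsb (0.69), Irf4 (0.62) and Ifi30 (0.53) were higher and Marchf1 (-0.89), Ebf1 (-2.74) and Pax5 (-3.23) lower. For CD301b, Irf8 (0.54) and Prdm1 (0.55) were higher and Marchf1 (-1.63), Ebf1 (-2.04) and Pax5 (-2.09) lower. Ebf1 and Pax5 belong to the B cell list as well, and their ratios went with the share of B cell marker barcodes for CD11b, CD172a and CD301b, while for CD8a that share was 6.38% in the highest and 7.79% in the lowest group. The part of these barcodes was not tested.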

How the data were processed

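The deposited values are raw counts of UMIs per gene, antibody tag and hashtag, in 1 matrix that holds the mRNA, antibody and hashtag libraries of 1 capture. It was made with Cell Ranger 7.0.0 per the file headers, on GRCm39 (mm39) per the submitters' processing notes. How barcodes were called as cells is not given in the sources used here. Hashtags were assigned to populations as the deposited description of the features lists them. No doublet caller was run.

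UMIs were summed per population or tag group and scaled to 1000000 mRNA UMIs (CPM), tags and hashtags left out of the total. Log2 ratios had 0.5 UMI added to each sum. Levels have exact Poisson intervals, ratios conditional binomial and shares Clopper-Pearson intervals at 95%, and differences of log2 values normal intervals, for counting error only. As each population is 1 sample, edgeR 4.0.16 gave TMM factors for an alternative scaling and no test. A member counts as higher or lower at a log2 ratio of 0.5 in size, and the share of all genes past it was taken over genes with 100 or more UMIs in both groups together. That share was taken over all kept barcodes only, not under the alternatives listed below. The members, gene lists and comparisons were chosen with earlier results of these data known. All 10 members are named. Of the 28 further symbols, those past 0.5 in the same direction in both states of the other reporter, or for a tag, are named. As most alike the 5 genes with the highest mean r are named, and for the summed genes also the 5 with the lowest. 1 of the further genes is not reported here. The ratios and intervals were tested on simulated data. Alternatives were stricter hashtag shares (95%), HTODemux in Seurat 5.3.0 (R 4.3.3, quantile 0.99), at most 5% mitochondrial UMIs, at least 5000 UMIs, other scalings, equal weight per barcode, thinning to 5000 UMIs, barcodes left out, other DO to DM ratios and other tag rankings. Python 3.11.15 with numpy 2.4.6, scipy 1.17.1 and pandas 2.3.3 was used. Promoter windows came from RefSeq on GRCm38.p6, which is not the build of the counts; no coordinate of the counts is printed.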

Additional observations from a re-analysis of the deposited data

Results flagged for a closer look

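The following pairs of values had opposite directions in groups under the same contrast. In each the difference between the groups was not tested, since each population is 1 sample. DO over DM for RFP+ against RFP- cells was at 0.058 within BFP+ and -0.067 within BFP-, and H2-Ob for BFP+ against BFP- cells at -0.040 within RFP+ and 0.067 within RFP-, all with intervals that include 0.

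For the CD11b tag, highest over lowest group, H2-Ab1 was at 0.57 in BFP-RFP- and -0.048 in BFP+RFP+ cells, H2-Eb1 at 0.21 in BFP-RFP- and -0.24 in BFP+RFP- cells, and Ciita at 0.26 in BFP-RFP+ and -0.81 in BFP+RFP- cells. For CD8a, H2-DMb1 was at 0.24 in BFP+RFP- and -0.89 in BFP-RFP- cells. For CD172a, H2-Ab1 was at 0.28 in BFP-RFP- and -0.24 in BFP-RFP+ cells. For CD301b, the values were 0.12 in BFP+RFP+ and -0.11 in BFP+RFP- cells for H2-DMa, 0.11 in BFP+RFP+ and -0.32 in BFP-RFP+ cells for H2-Aa, 0.17 in BFP+RFP- and -0.12 in BFP-RFP+ cells for H2-Ab1, and 0.15 in BFP+RFP+ and -0.17 in BFP-RFP+ cells for Cd74. These are the highest and the lowest of 4 populations each.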

How the results depend on the processing

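No paired analysis was possible because there is 1 sample of each population, with no replicate number. Of 960 member log2 ratios under alternatives, 507 stayed within the interval of the main value, 450 lay outside it and 3 changed sign among ratios past 0.5. The 16 population ratios past 0.5 kept their sign under all 11 alternatives they were run under, between 0.16 and 1.12. Scalings cancel in DO over DM. Counts of members higher within RFP+ and RFP- (BFP) and within BFP+ (RFP) were 8, 8 and 5 without barcodes with other-type markers. With the same tag mix (added after seeing the data) they were 1, 3 and 0, and 1 for RFP within BFP-. Without the deepest 5% of barcodes the count for RFP within BFP+ was 5. The share of all genes past 0.5 was not taken under these alternatives, so the counts of members have no background there.

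DO over DM for BFP within RFP+ was 0.21 with equal weight, 0.15 thinned to 5000 UMIs and 0.21 without barcodes with other-type markers, and within RFP- 0.38, 0.36 and 0.11. For RFP within BFP+ it was -0.053 with equal weight and -0.11 thinned, and within BFP- 0.12 and 0.095. For tags, DO over DM under equal weight and thinning was -1.10 and -1.09 for CD11b, -0.46 and -0.54 for CD8a, and -0.62 and -0.41 for CD172a, with -0.26 thinned for CD301b. Without barcodes with other-type markers it was -0.77 for CD11b, -0.20 for CD8a, -0.22 for CD172a and -0.15 for CD301b. Without the deepest 5% it was -0.37 for CD172a and -0.23 for CD301b. H2-Oa over H2-DMa gave -0.71 for CD11b, -0.48 for CD8a and -0.34 for CD172a. Centred log ratios gave -0.68 for CD11b and turned the sign for CD8a (0.42), CD172a (0.24) and CD301b (0.47). Tags per hashtag UMI gave -1.11, -0.46, -0.86 and -0.49 for CD11b, CD8a, CD172a and CD301b, and the highest against the lowest 10% -1.23, -0.45, -0.85 and -0.65. The cause was not tested.

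For CD301b, H2-Ob turned to 0.00077 without barcodes with other-type markers, 0.79 with centred log ratios and 0.55 per hashtag UMI. Members lower for CD301b numbered 0 at 5000 or more UMIs, 2 without other-type barcodes, 2 without the deepest 5%, 2 with centred log ratios and 3 between the highest and lowest 10%, and 1 was higher with centred log ratios and per hashtag UMI. For CD172a, 7 were lower without other-type barcodes and 5 without the deepest 5%, and 1 was higher between the highest and lowest 10%. For CD8a, 9 were higher per hashtag UMI, and 1 was lower with equal weight, thinned and between the highest and lowest 10%. For CD11b, 1 was higher between the highest and lowest 10%.

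With no minimum of 100 UMIs, 11.2%, 9.41%, 15.1% and 17.3% of all genes were higher by 0.5 and 22.8%, 17.5%, 14.1% and 14% were lower, in the order of the population comparisons. Depth limits H2-Ob most, with 129 UMIs in BFP-RFP- cells and 39 there without barcodes with other-type markers. Nothing here measures the spread between mice or captures.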
